A study of Caenorhabditis elegans with 9 samples.

Results

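The genes described here are 9 cuticle collagen genes of Caenorhabditis elegans that stood at the ends of the col- family when egl-44 mutant worms were set against wild type (WT) worms on E. coli OP50. They were selected on the values of that comparison, as the col- genes with the largest rises (col-36, col-41, col-54 and col-158) and the largest falls (col-19, col-81, col-122, col-129 and col-139). They are 9 of the 156 genes with a col- symbol and of the 20541 genes in the deposited tables, and all 9 were found by symbol. Their levels in egl-44 and WT worms on OP50 are therefore given as a description, with no test. The worms exposed to P. aeruginosa PA14 took no part in the selection.

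The cuticle of C. elegans is an extracellular coat that the epidermis (hypodermis) secretes and replaces at each moult. It consists mostly of small collagens, short chains of glycine repeats that assemble as trimers, are processed by proteases and are then crosslinked. Collagen genes are transcribed in waves during each moult, and many are used in only some of the larval, dauer or adult cuticles, so that the collagens of a worm mirror the cuticle it is making. The gene col-19 is known as a collagen of the adult cuticle, under the zinc finger factor LIN-29, which acts at the step between larva and adult. The other 8 genes are annotated as cuticle collagens, and no more specific role is given to them here.

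RNA-Seq libraries were made from whole young adult worms after 24 h at 25°C, with 3 libraries in each of 3 groups: egl-44(mt2247) worms on E. coli OP50, WT (N2) worms exposed to P. aeruginosa PA14, and WT (N2) worms on E. coli OP50. All worms had been grown at 20°C before, and the mutant had been backcrossed into N2. The gene egl-44 encodes the worm TEAD factor, the DNA-binding partner of YAP-1, and the study asked what it does in worms whose gut barrier is disrupted by PA14. The labels do not say that replicates are separate cultures, so that the p-values measure only the spread between these libraries. The mutant was represented by a single allele and was not sequenced on PA14. The paper describes RNA-Seq of WT worms on PA14 and on OP50, and mentions none of the mutant. Whether the egl-44 and WT libraries were prepared together is not stated. An effect of the mutation and a difference in batch therefore cannot be told apart.

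The libraries held 13638251 to 17831389 reads, and values are FPKM (fragments scaled by transcript length and library total). Some libraries stood apart or went against their labels, and this is given before the results. In all 3 libraries labelled egl-44, transcripts of fertile adults were near 0. The 6 yolk protein genes (vit-1 to vit-6) summed to 9.55, 13.5 and 25.2 FPKM in egl-44 worms, 5556, 5614 and 1869.5 FPKM in PA14 worms, and 1893, 3236 and 5999 FPKM in OP50 worms. The 11 oocyte and eggshell genes summed to 31.3 to 73.1 FPKM in egl-44 worms, 2830.0 to 5264 FPKM in PA14 worms and 1663 to 4020.2 FPKM in OP50 worms, and all 11 were lower in egl-44 worms, as were all 7 sperm genes. The adult collagens col-7 and col-62 were at most 1.47 FPKM in egl-44 worms and at least 114 FPKM in OP50 worms. Of the other genes listed for the adult cuticle, rol-6 went the other way, whereas bli-1 and bli-2 were divided over the egl-44 libraries. There were 343 to 569 FPKM of rol-6 in egl-44 worms and 9.33 to 142 FPKM in OP50 worms. In egl-44 replicate 3, bli-1 and bli-2 held 216 and 523 FPKM, against at most 96.6 and 213 FPKM in OP50 worms. In egl-44 replicates 1 and 2, bli-1 held 2.84 and 0.714 FPKM and bli-2 held 8.56 and 3.55 FPKM. These values lay under every OP50 library, of which the lowest held 5.74 FPKM of bli-1 and 13.1 FPKM of bli-2. The egl-44 worms therefore held little of the yolk, oocyte and sperm transcripts of fertile adults. An effect of the mutation on collagen genes and a difference in stage cannot be told apart. PA14 replicate 2 correlated with the other PA14 libraries at r = 0.870 and 0.927, against 0.964 between those, and held embryo transcripts (hch-1 at 31.8 FPKM, against 0.5498 and 0 in PA14 replicates 1 and 3). Results of PA14 against OP50 are given with and without it. OP50 replicates differed among themselves in moulting genes, which summed to 903, 476 and 107 FPKM.

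**Figure D1:**
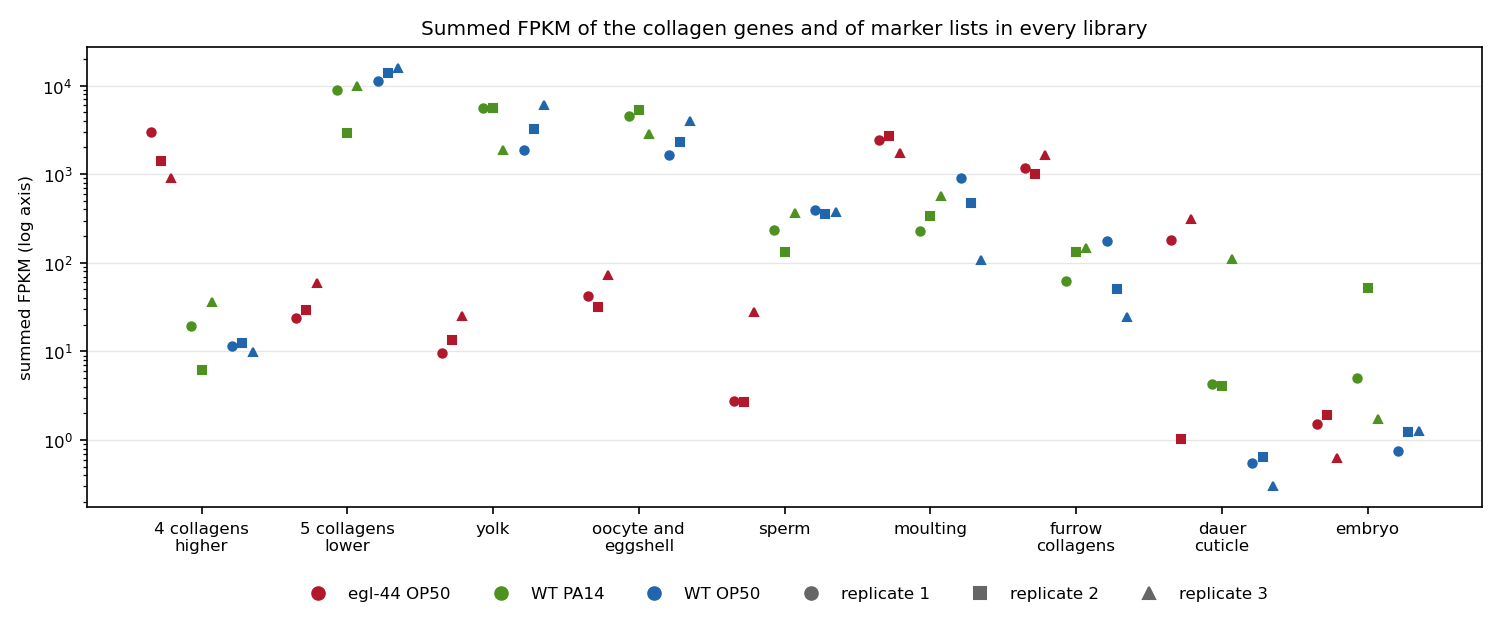
Summed FPKM (log axis) of the 4 collagen genes higher and the 5 lower in egl-44 worms, and of 7 marker lists, in each library; colours are groups (egl-44 on OP50, WT on PA14, WT on OP50) and shapes are replicates. The 5 lower collagens, yolk, oocyte and sperm genes each had their 3 lowest sums in the egl-44 libraries, whereas moulting genes and furrow collagens had their 3 highest sums there.

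The 9 genes lie on 5 chromosomes in WBcel235, the build the labels name (annotation of Ensembl release 115), and none has another of the 9 as a neighbour. Of the genes higher in egl-44 worms, col-36 (WBGene00000613) lies on chromosome II at 7167511 to 7168812, col-41 (WBGene00000618) on chromosome X at 15175032 to 15176481, col-54 (WBGene00000631) on chromosome I at 5842709 to 5844050, and col-158 (WBGene00000731) on chromosome V at 11829582 to 11831219. Of the genes lower in egl-44 worms, col-19 (WBGene00000608) lies on chromosome X at 421707 to 422691, col-81 (WBGene00000657) on chromosome II at 11012397 to 11013767, col-122 (WBGene00000696) on chromosome IV at 9563379 to 9564441, col-129 (WBGene00000703) on chromosome IV at 12108734 to 12110439, and col-139 (WBGene00000712) on chromosome V at 4652863 to 4653971. All are compact protein-coding genes of 2 or 3 exons, which code for 281 to 428 residues. The nearest other col- gene was 31677 bases away for col-81 and more than that for the rest. The annotation of col-36 overlaps dyf-13 on the same strand, where reads cannot be assigned with certainty, but dyf-13 itself was at most 0.653 FPKM in any library. The same holds for col-54 and F33D11.15 on its strand, for which no value is given here. On the opposite strand, col-54 overlaps WBGene00023024 and col-158 overlaps D2023.15, also with no value given here. Further on the opposite strand, col-41 overlaps ucr-2.2 (29.5 to 141 FPKM), col-19 overlaps ZK1193.2 (14.4 to 21.5 FPKM), col-122 overlaps lron-14 (1.26 to 3.27 FPKM) and col-158 overlaps nphp-4 (0.492 to 1.37 FPKM), and the counting is not stated to use strand, so that reads in these overlaps cannot be told apart. Collagen genes resemble each other, and the treatment of reads that fit several genes was not stated.

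The 5 genes lower in egl-44 worms were among the most abundant collagen transcripts of WT worms on OP50. By mean FPKM, col-122, col-139, col-81, col-129 and col-19 ranked 1, 3, 6, 7 and 14 among the 156 col- genes there, and together they made up 15.5%, 18.2% and 26.8% of the FPKM of all col- genes in the 3 OP50 libraries. In egl-44 worms this share was 0.0367%, 0.0549% and 0.136%, and their ranks were 99 to 121. In bulk samples, fewer cells that express a gene and less RNA per cell cannot be told apart.

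The adult collagen col-19 had 3.64, 4.47 and 5.54 FPKM in egl-44 worms, 2176, 714 and 1416 FPKM in PA14 worms, and 1475, 1855 and 2221 FPKM in OP50 worms. The egl-44 libraries lay close together and far under both WT groups, which overlapped each other. The mean was 407-fold lower in egl-44 worms than in OP50 worms, a log2 difference of -8.52 (SE 0.21) for egl-44 minus WT. All log2 differences are on log2(FPKM + 0.5), which understates the change of genes with low values.

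The largest fall was that of col-81. It had 3.67, 4.16 and 6.74 FPKM in egl-44 worms, 952, 265 and 1756 FPKM in PA14 worms, and 2384, 2754 and 3026.5 FPKM in OP50 worms. All 3 groups were separate, with every PA14 library between the egl-44 and the OP50 libraries. The log2 difference for egl-44 minus WT was -9.02 (SE 0.23), and the mean was 560.1-fold lower in egl-44 worms.

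The genes col-129 and col-139 followed the same order of groups. There were 4.92, 5.72 and 9.76 FPKM of col-129 in egl-44 worms, 1177, 358 and 1942 FPKM in PA14 worms, and 2123, 2729 and 3025 FPKM in OP50 worms, with a log2 difference for egl-44 of -8.53 (SE 0.27). For col-139 the values were 6.30, 7.38 and 12.3 FPKM in egl-44 worms, 1265, 437 and 2180.6 FPKM in PA14 worms, and 2539.5, 3065 and 3663 FPKM in OP50 worms, with a log2 difference of -8.44 (SE 0.26). In both genes egl-44 replicate 3 was the highest of its group, PA14 replicate 2 the lowest of its group, and no groups overlapped.

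The gene col-122, the most abundant col- transcript in OP50 worms, had 5.18, 7.73 and 24.1 FPKM in egl-44 worms, 3228, 1123 and 2489 FPKM in PA14 worms, and 2766, 3447 and 3866 FPKM in OP50 worms. The egl-44 libraries were less alike than for the other 4 genes, because replicate 3 held 4.64 times the level of replicate 1. PA14 and OP50 worms overlapped. The log2 difference for egl-44 was -8.31 (SE 0.51), or -8.93 without egl-44 replicate 3.

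Between 59 and 387 reads lay behind each of these values in an egl-44 library, so that the low values were above counting noise. The part of reads from overlapping or similar genes in them was not tested. ZK1193.2, which overlaps col-19, had 17.9, 14.4 and 17.1 FPKM in the egl-44 libraries. Among the 5 genes, the order of the means within OP50 worms was col-122 (3359.5 ± 555 FPKM, SD, n = 3), col-139 (3089 ± 562), col-81 (2722 ± 322), col-129 (2626 ± 460.0) and col-19 (1850.4 ± 373). Neighbours in this order differed by less than the larger of their SDs, with the exception of col-129 and col-19. In egl-44 worms the order was col-122 (12.3 ± 10.2), col-139 (8.67 ± 3.22), col-129 (6.80 ± 2.59), col-81 (4.86 ± 1.65) and col-19 (4.55 ± 0.951), with each neighbouring pair within the larger SD. In PA14 worms it was col-122 (2279.9 ± 1068), col-19 (1436 ± 731), col-139 (1294 ± 872), col-129 (1159 ± 793) and col-81 (991 ± 746), again with each neighbouring pair within the larger SD, and col-19 had moved ahead of 3 genes that exceeded it in all OP50 libraries. These SDs are between libraries and leave out that the genes were measured in the same libraries. In egl-44 worms the order of col-122 and col-139 and that of col-81 and col-19 changed between libraries. In PA14 worms that of col-19 and col-139 changed. Every other neighbouring pair kept its order in each library of its group.

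**Figure D2:**
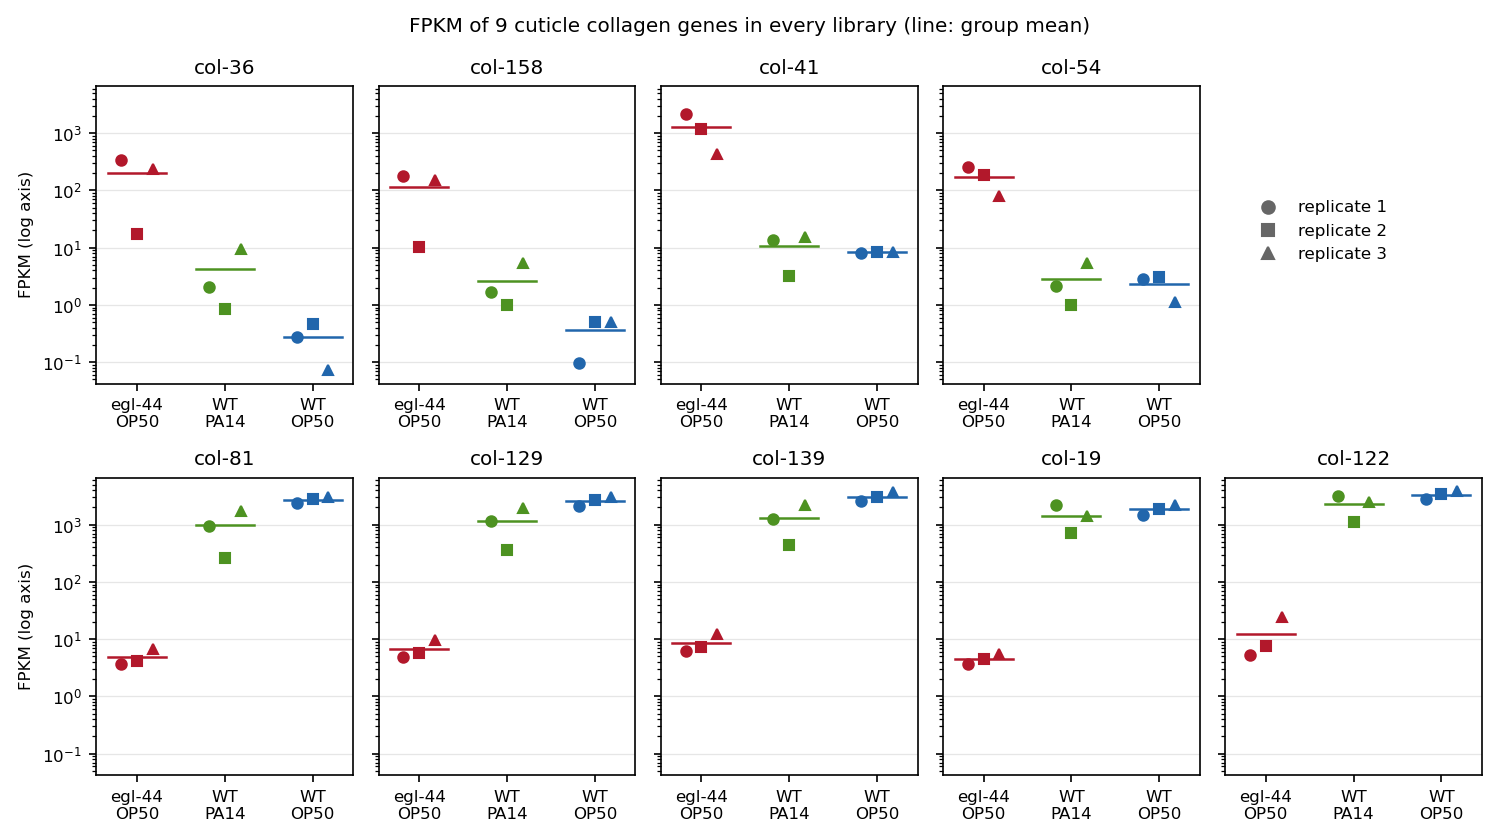
FPKM (log axis) of the 9 collagen genes in each library, for egl-44 worms on OP50, WT worms on PA14 and WT worms on OP50; shapes are replicates and lines are group means. The upper row shows the genes higher in egl-44 worms and the lower row those lower there; egl-44 replicate 2 is far under replicates 1 and 3 for col-36 and col-158 alone.

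The 4 genes higher in egl-44 worms were scarce in WT worms. Together they made up 4.60%, 2.65% and 2.10% of the FPKM of all col- genes in the egl-44 libraries, 0.0407%, 0.0374% and 0.0661% in the PA14 libraries, and 0.0156%, 0.0163% and 0.0169% in the OP50 libraries. They did not form one pattern: col-41 and col-54 were high in all egl-44 libraries, whereas col-36 and col-158 were high in 2 of them.

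Of the 4, col-41 was the most abundant, with rank 12 of the col- genes in egl-44 worms and rank 99 in OP50 worms. It had 2189.5, 1205 and 440.3 FPKM in egl-44 worms, 13.5, 3.26 and 15.6 FPKM in PA14 worms, and 8.21, 8.31 and 8.23 FPKM in OP50 worms. The OP50 libraries were nearly equal, and the PA14 libraries lay on both sides of them. The mean was 155-fold higher in egl-44 worms than in OP50 worms, with a log2 difference of 6.91 (SE 0.53).

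The gene col-54 varied over the egl-44 libraries in the same order as col-41, highest in replicate 1 and lowest in replicate 3. It had 256, 187 and 80.8 FPKM in egl-44 worms, 2.12, 0.980 and 5.37 FPKM in PA14 worms, and 2.84, 3.08 and 1.13 FPKM in OP50 worms. Here too PA14 and OP50 worms overlapped. The mean was 74.3-fold higher in egl-44 worms than in OP50 worms, and the log2 difference was 5.87 (SE 0.49).

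The gene col-36 had 343, 17.3 and 232 FPKM in egl-44 worms, 2.07, 0.859 and 9.61 FPKM in PA14 worms, and 0.2702, 0.4705 and 0.0729 FPKM in OP50 worms. Its egl-44 libraries differed by 19.8-fold, with replicate 2 the lowest, yet all lay above every WT library, and all PA14 libraries lay above all OP50 libraries. The OP50 values rested on 4, 6 and 1 reads, so that a fold change of means would be imprecise and is not given. The log2 difference for egl-44 was 7.22 (SE 1.05), and it was 8.55 without egl-44 replicate 2.

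The gene col-158 behaved alike, with 182, 10.2 and 150.3 FPKM in egl-44 worms, 1.69, 1.01 and 5.29 FPKM in PA14 worms, and 0.0950, 0.496 and 0.512 FPKM in OP50 worms. Its egl-44 libraries differed by 17.7-fold, and the OP50 values rested on 2, 9 and 10 reads. No groups overlapped. The log2 difference for egl-44 was 6.30 (SE 1.05), and 7.62 without egl-44 replicate 2.

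By mean FPKM the order in egl-44 worms was col-41 (1278 ± 877 FPKM, SD, n = 3), col-36 (197 ± 165), col-54 (175 ± 88.3) and col-158 (114 ± 91.2), with the last 3 within their spread between libraries. Within each egl-44 library, however, col-36 exceeded col-158, and col-54 exceeded both in replicate 2 alone. In PA14 worms it was col-41 (10.8 ± 6.59), col-36 (4.18 ± 4.74), col-54 (2.82 ± 2.28) and col-158 (2.66 ± 2.30), again with the last 3 within their spread. In OP50 worms it was col-41 (8.25 ± 0.0525), col-54 (2.35 ± 1.06), col-158 (0.368 ± 0.236) and col-36 (0.271 ± 0.199), and only the last pair lay within its spread.

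Within the egl-44 libraries, the transcripts of the dauer cuticle were lowest in replicate 2, like col-36 and col-158. The dauer is an arrested larval stage with a cuticle of its own, and the 3 genes listed for it (the collagens col-2 and col-40 and the cuticlin cut-1) summed to 181, 1.03 and 313 FPKM in egl-44 replicates 1, 2 and 3, 4.27, 4.06 and 110.4 FPKM in PA14 worms, and 0.550, 0.647 and 0.2995 FPKM in OP50 worms. In both sets the egl-44 replicates 1 and 3 were high and replicate 2 low, and PA14 replicate 3 was the highest WT library. This was not particular to the dauer list. Other col- genes were also low in egl-44 replicate 2, such as col-43 (259, 8.90 and 179 FPKM) and col-84 (78.3, 0.763 and 73.4 FPKM). Further ones were not, such as col-90 (1857, 983 and 447 FPKM). The moulting genes summed to 2437, 2705 and 1724 FPKM in the egl-44 libraries, of which cut-2 alone held 809, 1603 and 312 FPKM. Some moulting genes were lowest in replicate 2, with a far smaller difference, such as qua-1 (187, 93.1 and 142 FPKM). Others were not, such as nas-36 (24.5, 20.5 and 12.7 FPKM). Whether a difference in stage between the egl-44 libraries had a part in the levels of col-36 and col-158 was not tested.

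Ratios between genes within a library, which do not depend on the library total, are given for some pairs. The ratio of col-36 to col-158 was 1.89, 1.69 and 1.54 in the egl-44 libraries although both genes differed over 17-fold between them, and 1.23, 0.854 and 1.82 in PA14 worms. In OP50 worms it was 2.85, 0.949 and 0.142, a wide spread that rests on 1 to 10 reads per gene. That of col-41 to col-54 was 8.55, 6.45 and 5.45 in egl-44 worms, 6.37, 3.32 and 2.90 in PA14 worms, and 2.90, 2.70 and 7.27 in OP50 worms. Both pairs lie on different chromosomes.

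The 5 lower genes fell into a group of 3 and a group of 2 in WT worms. Over the 6 WT libraries, col-81, col-129 and col-139 varied nearly in parallel (r = 0.996 to 0.998 on log2(FPKM + 0.5)), as did col-19 and col-122 (r = 0.978), whereas r between the groups was 0.774 to 0.909. These 6 points include both feeding groups and share library effects, so that they are a description. The ratio of col-81 to col-19 was 0.438, 0.371 and 1.24 in PA14 worms and 1.62, 1.48 and 1.36 in OP50 worms, and that of col-139 to col-122 was 0.392, 0.389 and 0.876 in PA14 worms and 0.918, 0.889 and 0.948 in OP50 worms. That of col-129 to col-19 was 0.541, 0.5004 and 1.37 in PA14 worms and 1.44, 1.47 and 1.36 in OP50 worms. In all 3 pairs PA14 replicates 1 and 2 lay under the OP50 libraries and replicate 3 was much nearer to them. Replicate 3 lay under every OP50 ratio in the first 2 pairs and within the OP50 range for col-129 over col-19. In egl-44 worms the ratio of col-81 to col-19 was 1.01, 0.931 and 1.22.

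**Figure D3:**
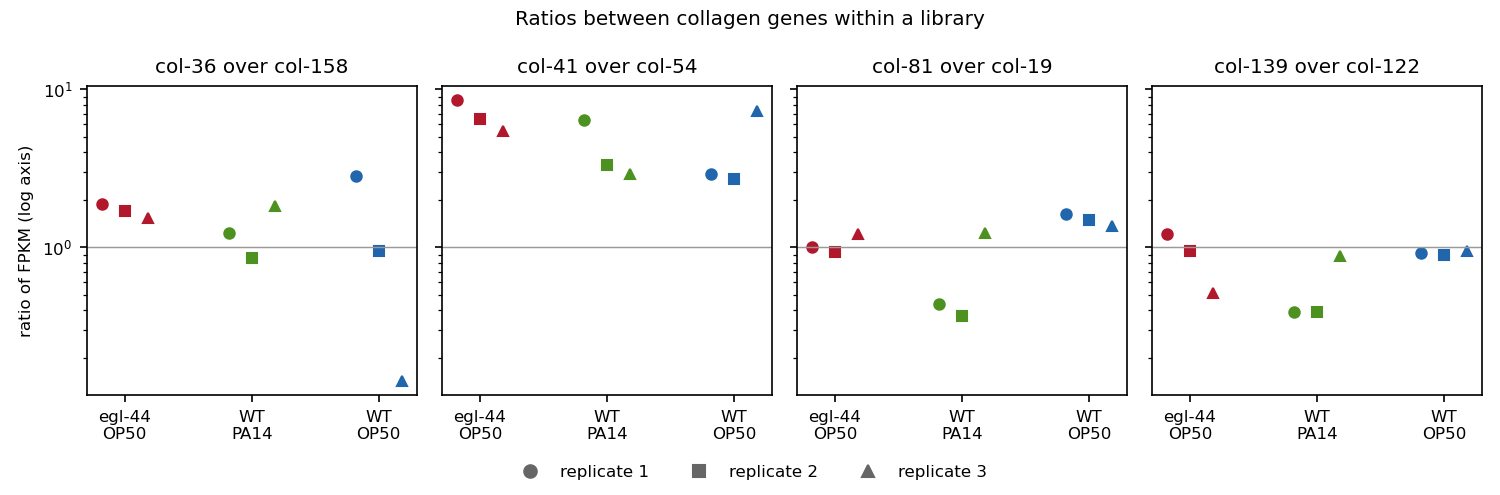
Ratio of FPKM (log axis) between 2 collagen genes in the same library, for 4 pairs, in egl-44 worms on OP50, WT worms on PA14 and WT worms on OP50; shapes are replicates. For col-81 over col-19 and col-139 over col-122, PA14 replicates 1 and 2 lie low and replicate 3 lies close to the OP50 libraries; the OP50 ratios of col-36 over col-158 rest on 1 to 10 reads per gene.

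To see where the 9 genes stood in their family, all col- genes were ordered by the log2 difference of egl-44 minus WT on OP50. The 9 selected genes and 130 of the other 147 averaged 0.5 FPKM or more over these 6 libraries. The selection ended where col-54 (5.87) was followed by col-176 (5.54) and col-2 (5.28), and where col-122 (-8.31) was followed by col-124 (-8.27) and col-119 (-8.24). The threshold therefore had no gap on the lower side, and col-181 (-8.21) and col-178 (-8.04) came next. In all, 20 col- genes had a log2 difference under -5, 8 had one over 5, and 37 were within 1 of 0, so that the family was spread over the whole range. The genes next to the selected ones had like levels: col-124 had 7.004, 8.67 and 13.8 FPKM in egl-44 worms, 3060.2, 863 and 2626 FPKM in PA14 worms, and 2390.2, 3036 and 4029.8 FPKM in OP50 worms, and col-176 had 1087, 879 and 946 FPKM in egl-44 worms, 14.6, 8.48 and 57.3 FPKM in PA14 worms, and 31.01, 34.4 and 7.72 FPKM in OP50 worms.

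**Figure D4:**
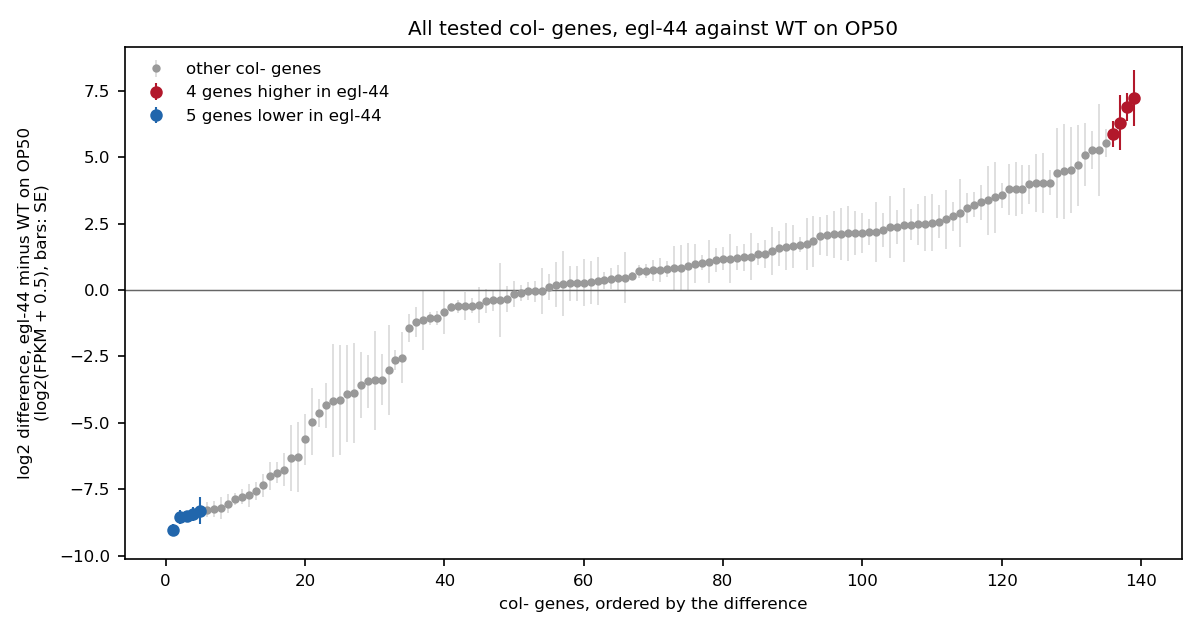
Log2 difference of egl-44 minus WT worms on OP50 (log2(FPKM + 0.5), bars are SE, n = 3 libraries per group) for the 9 selected and 130 other col- genes, ordered by its size; red and blue points are the 4 and 5 selected genes. The selected genes occupy both ends by choice, and further col- genes follow them closely, with col-124 at -8.27 and col-176 at 5.54.

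A gene was called where its fold change was over 2 and the p of limma, before adjustment, was under 0.05. Of the other col- genes, 44 of 130 tested were called higher and 26 lower in egl-44 worms, against 17.9% and 23.4% of all genes tested. The groups did not overlap for any of the 9 selected genes, and of all genes 34.1% had every egl-44 library above every OP50 library and 35.6% every one below. Nothing is read from these counts for the 9 genes, since the same values chose them. The count of 44 was 22 without egl-44 replicate 1. Of all calls in this comparison, 43.4% were higher in egl-44 worms, and this share was 36.9% under median-of-ratios scaling and 59.2% under quantile normalization.

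The comparison that was not used to choose the genes was PA14 against OP50 in WT worms. It shares its OP50 libraries with the selection, so that it is not fully independent. Under the same limits, 2 of the 9 genes were called higher (col-36 and col-158) and 3 lower (col-81, col-129 and col-139) in PA14 worms, where 6.99% of all 15760 genes tested were called higher and 1.78% lower. At an adjusted p under 0.05, which 0.857% of all genes passed, limma called 0 of the 9 genes with all libraries, 0 without PA14 replicate 2 and 0 with limma voom on recovered reads. At an unadjusted p under 0.05 these counts were 5, 6 and 5. The share of all genes under that p alone is not given here, so that nothing is read from these counts. In each of the 5 called genes the groups did not overlap, which was so in 23.7% of all genes for PA14 above OP50 and in 6.53% for PA14 below OP50. With 3 libraries against 3, an exact two-sided permutation test cannot give less than 0.1, and it gave 0.1 for these 5 genes. The median of all genes was shifted by 0.25 in log2 toward PA14, and by 0.01 under median-of-ratios scaling.

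For the genes called higher, col-36 had a log2 difference of 2.12 (SE 0.73, adjusted p = 0.217) and col-158 one of 1.66 (SE 0.55, adjusted p = 0.210) in limma. PA14 replicate 3 was the highest in both, and without it the differences were 1.31 and 1.11. Without PA14 replicate 2 they were 2.76 (adjusted p = 0.146) and 2.08 (adjusted p = 0.163). The call of col-36 was lost without OP50 replicate 1 (2.14) or 3 (1.92), and that of col-158 without OP50 replicate 1 (1.41). The adjusted p of limma ran from 0.142 to 0.530 for col-36 and from 0.154 to 0.530 for col-158 over 16 alternatives each. Both stayed under their level in egl-44 worms, where the lowest library held 17.3 FPKM of col-36 and 10.2 FPKM of col-158, against at most 9.61 and 5.29 FPKM in PA14 worms.

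For the genes called lower, col-81 had a log2 difference of -1.83 (SE 0.63, adjusted p = 0.217), col-139 one of -1.52 (SE 0.55, adjusted p = 0.223) and col-129 one of -1.47 (SE 0.58, adjusted p = 0.235) in limma. Without PA14 replicate 2 these values were -1.07, -0.88 and -0.78, and only col-81 kept its call. Without PA14 replicate 3 they were -2.43, -2.04 and -2.001. The call of col-81 was also lost without OP50 replicate 2 (-1.82) or 3 (-1.75), that of col-139 without OP50 replicate 2 (-1.52) or 3 (-1.39), and that of col-129 without OP50 replicate 1 (-1.62), 2 (-1.44) or 3 (-1.36) or PA14 replicate 1 (-1.64). Over 17 alternatives each, the adjusted p of limma ran from 0.129 to 0.528 for col-81, from 0.130 to 0.526 for col-139 and from 0.130 to 0.530 for col-129.

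The other 4 genes did not pass. The log2 difference for PA14 was -0.68 (SE 0.38, adjusted p = 0.308) for col-122, -0.49 (SE 0.39, adjusted p = 0.432) for col-19, 0.11 (SE 0.55, adjusted p = 0.901) for col-41 and 0.07 (SE 0.58, adjusted p = 0.939) for col-54 in limma. Without PA14 replicate 2 these were -0.23, -0.06, 0.78 and 0.54. The adult collagen col-19 was thus within the OP50 range in PA14 replicate 1 or a little under it in replicate 3, and lowest in replicate 2, at 714 FPKM. These p-values do not show that the levels were equal.

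**Figure D5:**
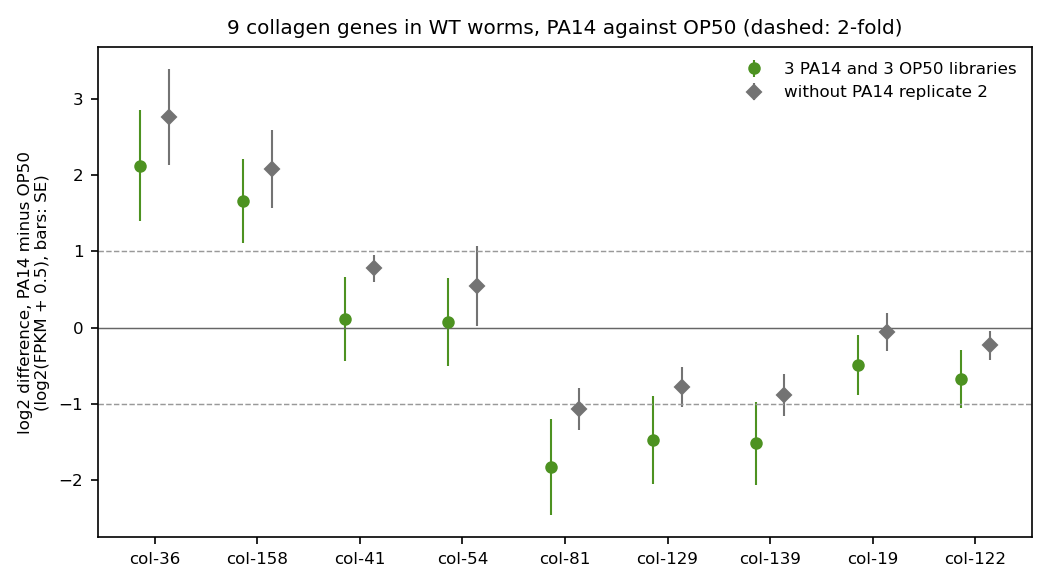
Log2 difference of PA14 minus OP50 in WT worms (log2(FPKM + 0.5), bars are SE) for the 9 collagen genes, with 3 PA14 and 3 OP50 libraries (circles) and without PA14 replicate 2 (diamonds); dashed lines mark 2-fold. Circles for col-36 and col-158 lie above 2-fold and those for col-81, col-129 and col-139 below it; without PA14 replicate 2 only col-36, col-158 and col-81 stay beyond these lines.

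In PA14 replicate 2 the level of col- transcripts as a whole was low. Collagens without a col- symbol were not uniformly low there. The 6 furrow collagens, described below, summed to 61.7, 134 and 147 FPKM in PA14 replicates 1, 2 and 3. The 14 body shape collagens, also described below, summed to 1162, 1159 and 4035 FPKM. All col- genes summed to 47564, 16324 and 54185 FPKM in PA14 replicates 1, 2 and 3 and to 72942, 75973 and 58958 FPKM in the OP50 libraries. The 5 lower genes made up 18.5%, 17.7% and 18.1% of that sum in the PA14 libraries, against 15.5%, 18.2% and 26.8% in the OP50 libraries. The part of embryo RNA in the values of this library was not tested. Its 11 embryo markers summed to 51.7 FPKM, against 5.03 and 1.74 FPKM in PA14 replicates 1 and 3 and 0.755 to 1.27 FPKM in OP50 worms. Of the markers, 2 were under 1 FPKM in all PA14 libraries, and all 11 were so in OP50 worms.

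Of the other 131 col- genes tested for PA14, 6 were called higher and 16 lower, where 6.99% of all genes were called higher and 1.78% lower. Without PA14 replicate 2 there were 6 and 6. Without PA14 replicate 3 or OP50 replicate 3 the lower calls were 43 and 39, and they were 5 or 6 without any other single library. Their median log2 difference was -1.06, or -0.29 without PA14 replicate 2, against 0.25 over all genes. The largest rises were those of col-2 (3.54, adjusted p = 0.218), col-37 (3.21, adjusted p = 0.226) and col-95 (3.09, adjusted p = 0.0832) in limma. In col-2 and col-37 the rise rested mostly on PA14 replicate 3, which held 62.4 and 43.8 FPKM, whereas col-95 had 249, 365 and 134 FPKM in PA14 worms and 12.6, 54.8 and 26.7 FPKM in OP50 worms. The largest falls were those of col-7 (-3.11, adjusted p = 0.179), col-149 (-3.10, adjusted p = 0.157) and col-133 (-2.85, adjusted p = 0.218). Of all calls in this comparison, 79.7% were higher in PA14 worms, and this share was 51.99% under median-of-ratios scaling and 43.9% under quantile normalization.

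Other genes of the cuticle were counted in the egl-44 comparison beside the same background of 17.9% higher and 23.4% lower. All 6 furrow collagens, which form the ring-shaped grooves of the cuticle, were called higher in egl-44 worms, with dpy-7 at 262, 203 and 380 FPKM in egl-44 worms, 13.4, 35.95 and 31.98 FPKM in PA14 worms and 41.6, 9.60 and 3.79 FPKM in OP50 worms (log2 difference 4.48). Of 13 tested body shape collagens, whose mutants are short, rolled or blistered, 9 were called higher, led by rol-6 (3.31), rol-8 (3.22), sqt-2 (2.97) and sqt-3 (2.83). Their median was 2.34, against 0.12 over all genes. The blister collagens stood apart, since bli-1, bli-2 and bli-6, of which the first pair is known for the struts of the adult cuticle, were high among the egl-44 libraries in replicate 3 alone: bli-2 had 8.56, 3.55 and 523 FPKM in egl-44 worms, 28.4, 3.41 and 112 FPKM in PA14 worms, and 213, 49.6 and 13.1 FPKM in OP50 worms. In the same library each of the 5 lower genes was also highest of its group, from col-19 at 5.54 FPKM to col-122 at 24.1 FPKM. There mab-10, a cofactor of LIN-29, was at 41.6 FPKM against 12.9 and 15.2 FPKM in the other egl-44 libraries. The adult collagens col-7 (0.824, 0.646 and 0.306 FPKM in egl-44 worms) and col-62 (1.47, 1.23 and 0.395 FPKM in egl-44 worms) were instead lowest in replicate 3. Their values were near the floor, since 1 read on 1 kb was worth 0.0626 FPKM in that library. Whether these 2 genes moved apart from the other genes of the adult cuticle over the egl-44 libraries therefore cannot be read from them.

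The adult cuticle list divided. Of its 5 genes, col-7 (-7.78) and col-62 (-6.87) were called lower in egl-44 worms and rol-6 higher, whereas bli-1 and bli-2 did not pass. Thus the fall of col-19 was shared by the other 2 col- genes listed for the adult cuticle. In PA14 worms, col-7 and col-62 were also called lower, at -3.11 and -2.50, with 25.4, 6.96 and 105 FPKM of col-7 in PA14 worms and 285, 267 and 171 FPKM in OP50 worms. The 3 dauer genes were all called higher in egl-44 worms, and 2 of them, col-2 and col-40, in PA14 worms. These calls in PA14 worms stand beside 6.99% of all genes called higher and 1.78% lower, and limma gave an adjusted p of 0.179 for col-7, 0.197 for col-62, 0.218 for col-2 and 0.229 for col-40. PA14 replicate 3 held 62.4 FPKM of col-2 and 43.5 FPKM of col-40, against at most 2.39 FPKM of either in the other PA14 libraries.

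Of 11 genes for prolyl hydroxylation, disulfide formation, proteolytic processing and crosslinking, 2 were called higher in egl-44 worms: pdi-2, a protein disulfide isomerase that is also a subunit of the prolyl hydroxylase (1.53), and dpy-31, an astacin protease that cuts procollagen (1.44). This count of 2 of 11 was near the share of 17.9% among all genes. Their median log2 difference was 0.84, against 0.12 over all genes. There were 1728, 1455 and 1990 FPKM of pdi-2 in egl-44 worms and 905, 592 and 391 FPKM in OP50 worms. Of 16 moulting genes, 13 were called higher in egl-44 worms, with a median of 2.44, among them the fibrillin-like fbn-1 (4.49), the apical matrix genes noah-1 (4.09) and noah-2 (3.85), and the protease inhibitor gene mlt-11 (4.01).

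Among 17 regulators of stage and cuticle that the files hold, 9 were called higher in egl-44 worms, with a median of 1.26. The leading ones were the nuclear receptor nhr-25 (2.86), the period-like gene lin-42 (2.64), hbl-1 (2.42) and blmp-1 (2.34), which act in the timing of larval stages and moults. The gene lin-29, whose product acts on col-19, had 19.1, 11.6 and 16.6 FPKM in egl-44 worms, 4.496, 1.84 and 6.996 FPKM in PA14 worms, and 5.77, 4.71 and 3.03 FPKM in OP50 worms. It was called higher in egl-44 worms (1.71), in the libraries where col-19 was lowest. The nuclear receptor nhr-23, which acts in every moult, had 30.5 to 32.05 FPKM in egl-44 worms, 29.7 to 30.7 FPKM in PA14 worms and 28.8 to 33.0 FPKM in OP50 worms.

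The egl-44 transcript itself had 32.5, 37.8 and 28.2 FPKM in egl-44 worms, 30.4, 37.5 and 32.9 FPKM in PA14 worms, and 16.1, 21.5 and 16.0 FPKM in OP50 worms. The labels name no deletion, so that this level does not check the genotype. Of the 5 genes of the EGL-44 complex and the Hippo kinases, 2 were called higher in egl-44 worms, egl-46 (1.39) and cst-1 (1.19). Among all genes, 17.9% were called higher.

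Markers of the tissues a whole worm holds were compared in the same way. In egl-44 worms, 4 of 8 epidermis genes were called higher, 2 of 6 intestine genes, 1 of 5 muscle genes and 3 of 5 neuron genes. These counts stand beside 17.9% of all genes called higher, and that of the muscle genes was near this share. The epidermis list summed to 344 to 487 FPKM in egl-44 worms, 105 to 170 FPKM in PA14 worms and 95.4 to 125 FPKM in OP50 worms, and dpy-7, a furrow collagen, was the highest of the list in egl-44 worms. In PA14 worms, where 6.99% of all genes were called higher, fbn-1 of the moulting list and unc-119 of the neuron list were called higher. Their log2 differences were 1.99 (adjusted p = 0.199) and 1.02 (adjusted p = 0.183) in limma. There were 2.31, 13.5 and 3.79 FPKM of fbn-1 in the PA14 libraries, highest in replicate 2. The call of unc-119 was lost under median-of-ratios scaling, under quantile normalization and without PA14 replicate 2. The intestine list summed to 385 FPKM in PA14 replicate 2 and to 1044 FPKM in each of PA14 replicates 1 and 3.

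The genes whose levels were most like those of the selected genes were sought over the 9 libraries among the 11036 genes that averaged 5 FPKM or more. Closest to the 5 lower genes were clc-18 (r = 0.999), C18G1.9 (0.999), Y47D3A.31 (0.998), C47A4.5 (0.998) and nsph-4.2 (0.998), and 929 genes had an r over 0.95, of which 10 were other col- genes. For example, clc-18 had 0, 0 and 0.278 FPKM in egl-44 worms, 8.01, 4.55 and 9.93 FPKM in PA14 worms, and 10.4, 11.8 and 12.7 FPKM in OP50 worms. Closest to the 4 higher genes were wrt-3 (r = 0.992), tre-4 (0.98999), T20D4.10 (0.989), nekl-3 (0.989) and egl-13 (0.985), and 57 genes had an r over 0.95, of which 2 were other col- genes. The hedgehog-related gene wrt-3 had 23.3, 14.97 and 16.3 FPKM in egl-44 worms, 4.22, 3.32 and 5.27 FPKM in PA14 worms, and 4.18, 3.82 and 3.31 FPKM in OP50 worms. These correlations mostly follow the distance of the 3 egl-44 libraries from the other 6.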

How the data were processed

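The authors deposited 1 table per library with the FPKM of 20541 genes; 19587 had a symbol. The submitters' processing notes name Bowtie2 2.2.3, TopHat2 2.0.12, HTSeq 0.6.1, DESeq 1.18.0 and WBcel235, without their roles. The sources used here give neither strand nor the counting of shared reads. Whole reads were recovered from the FPKM of all 19711 genes above 0 (tolerance 0.01 reads, with 1 length solved per gene), which gave the library totals; 1 read on 1 kb was worth 0.0561 to 0.0733 FPKM (counting error only).

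Each comparison was fitted over all genes that averaged 0.5 FPKM or more in its 6 libraries, by limma 3.58.1 (R 4.3.3, trend) on log2(FPKM + 0.5), with Benjamini-Hochberg adjustment. Steps were tested on simulated data. The 9 genes, the gene lists and the tests were chosen with earlier results of these data known. Genes named in a list are the called ones with the largest differences, up to 4; for other col- genes, the 3 largest in each direction; for likeness, the 5 highest r. The bli, lin-29, mab-10, nhr-23, col-178 and embryo genes named besides were chosen after their values were seen. Alternatives were other pseudocounts, filters, scalings, limits and fits, a replicate block and leaving out each library; limma voom on recovered reads was added after seeing the data. Tables were made with Python 3.11.15, pandas 2.3.3, numpy 2.4.6, scipy 1.17.1 and matplotlib 3.10.9.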

Additional observations from a re-analysis of the deposited data

How the results depend on the processing

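The log2 differences of the 9 genes for egl-44 kept their sign in 153 of 153 alternatives. This was largely set by the choice of genes with large differences in the same libraries, and nothing is read from it. For PA14, 123 of 150 kept their sign and side of the limits, 19 lost the call and 8 turned. The turned ones were col-41 (-0.12 under median-of-ratios scaling, -0.13 under quantile normalization, -0.17 without PA14 replicate 1, -0.27 without PA14 replicate 3) and col-54 (-0.12 and -0.26 under these scalings, -0.29 without OP50 replicate 3, -0.45 without PA14 replicate 3). Leaving out 1 library gave -0.27 to 0.78 for col-41 and -0.45 to 0.54 for col-54. For each change below, the cause was not tested, apart from the stricter limits and filters, which by construction leave fewer genes.

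Calls among the 9 genes for PA14 (2 higher, 3 lower) were 0 and 0 at an adjusted p under 0.05, 1 and 0 at a fold change over 4, and 1 and 1 under quantile normalization; the higher calls were 0 with a filter at a mean of 5 FPKM and 0 in 1 fit of all 9 libraries. Leaving out 1 library gave 0 to 2 higher and 0 to 3 lower.

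For the other col- genes under PA14 (6 higher, 16 lower), adjusted limits gave 0 and 0; higher calls were 11 and 3 with a pseudocount of 0.1 and 1 FPKM, and 3 each with the 5 FPKM filter, quantile normalization and limma voom; lower calls were 25 in 1 fit of all 9 libraries. Leaving out 1 library gave 1 to 9 higher and 5 to 43 lower. For egl-44 (44 higher, 26 lower), it gave 22 to 41 higher and 22 to 31 lower.

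Over all genes, PA14 calls (1102 higher, 281 lower) were 115 and 20 at the adjusted limit, 232 and 67 at a fold change over 4, 603 and 183 with the 5 FPKM filter, 653 and 603 under median-of-ratios scaling, 521 and 667 under quantile normalization, and 749 to 1602 and 144 to 993 without 1 library. The egl-44 calls (2780 higher, 3625 lower) were 617 and 2163 at a fold change over 4, with 1627 higher under the 5 FPKM filter and 4336 under quantile normalization, and 2470.0 to 2921 higher and 3318 to 3924 lower without 1 library.

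No clear pairing by replicate number was seen: deviations of same-numbered libraries correlated at -0.19, -0.24 and -0.55 (PA14 and OP50) and 0.08, 0.06 and 0.09 (egl-44 and OP50). No PA14 library correlated best with the OP50 library of its own number. Replicates 2 and 3 of egl-44 did so, and replicate 1 did not. With 3 libraries per group, such correlations cannot exclude pairing. With a replicate block, PA14 calls were 994 higher and 229 lower over all genes, 2 and 3 among the 9 genes and 9 and 9 among the other col- genes; the egl-44 calls were 2857 and 3608. Depth limits mainly the OP50 levels of col-36 and col-158, which rest on 1 to 10 reads per library.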
